A study of Homo sapiens with 6 samples.

Results

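The miR-193 and miR-365 miRNAs are made from 4 precursors in 2 clusters, MIR193B with MIR365A on chromosome 16 and MIR193A with MIR365B on chromosome 17. They were followed by name, arm by arm, in small RNA sequencing of MDA-MB-231, a human cell line of triple-negative breast cancer (TNBC). The 6 arms chosen were hsa-miR-193a-5p, hsa-miR-193a-3p, hsa-miR-193b-3p, hsa-miR-193b-5p, hsa-miR-365a-3p and hsa-miR-365b-3p, written without the species prefix from here on. Of these, 5 had a row among the 1582 miRNAs of the table. The exception was miR-365b-3p, which had no row there. Its mature sequence is the same as that of miR-365a-3p, so the row miR-365a-3p was read as the shared arm. The 5p arms of both miR-365 precursors, miR-365a-5p and miR-365b-5p, were added to tell the clusters apart. The control group was 3 libraries of non-transfected MDA-MB-231 cells. The other group was 3 libraries of MDA-MB-231 cells transfected with RARαS77A, a retinoic acid receptor α in which a serine that is normally phosphorylated is replaced by alanine. The series design describes the RARαS77A construct as lentiviral. The control cells carried no vector, so delivery of the construct and the mutant receptor cannot be told apart.

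A miRNA precursor is a hairpin that is cut to a short duplex with a 5p and a 3p arm. One arm is usually retained in the silencing complex, where bases 2 to 8, the seed, pair with target mRNAs, and the other arm is mostly degraded. miR-193b-3p and miR-193a-3p have been described as growth-suppressing in breast cancer and other tumours, with cyclin D1 and the urokinase gene PLAU among their reported targets. The miR-193b and miR-365 cluster is also known for its role in brown fat differentiation, and miR-365 has been reported both to suppress and to promote growth, depending on the tissue.

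The mature sequences show which arms can be told apart by sequencing and which share targets. They were taken from RefSeq (GRCh38.p14) and are written from 5′ to 3′ with the seed in capitals, the 3p arms first.
miR-193b-3p: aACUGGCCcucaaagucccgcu
miR-193a-3p: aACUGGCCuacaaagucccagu
miR-365a-3p: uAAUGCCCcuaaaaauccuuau
miR-365b-3p: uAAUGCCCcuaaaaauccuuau
miR-193b-5p: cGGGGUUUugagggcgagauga
miR-193a-5p: uGGGUCUUugcgggcgagauga
miR-365a-5p: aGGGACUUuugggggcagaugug
miR-365b-5p: aGGGACUUucaggggcagcugu

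miR-193a-3p and miR-193b-3p share a seed and differ at 4 of 22 positions, which are U9C, A10U, A20G and G21C, counted from the 5′ end with the base of miR-193a-3p first. The miR-193 5p arms also differ at 4 of 22 positions, of which 2, U5G and C6U, lie in the seed (base of miR-193a-5p first). miR-365a-3p and miR-365b-3p are identical over all 22 bases, so reads of the row named miR-365a-3p can come from either chromosome. The miR-365 5p arms share their seed and differ at 3 of 22 compared positions (U10C, G11A and A19C, base of miR-365a-5p first). Among the 2370 mature names in the RefSeq table, no other miRNA had one of these seeds. The sources used here do not say how reads with mismatches were assigned, and whether reads of one arm were counted for its relative was not tested.

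In GRCh38, MIR193B lies on chromosome 16 from 14303967 to 14304049 and MIR365A from 14309285 to 14309371, both on the plus strand. They are 5235 bases apart, in introns of the long non-coding RNA gene MIR193BHG (GENCODE 29). MIR193A lies on chromosome 17 from 31559996 to 31560083 and MIR365B from 31575411 to 31575521, also on the plus strand and 15327 bases apart. No other GENCODE gene overlaps MIR193A, whereas MIR365B overlaps an exon of the long non-coding RNA gene AC003101.1. In RefSeq, MIR365B lies within the host gene MIR365BHG.

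**Figure D1:**
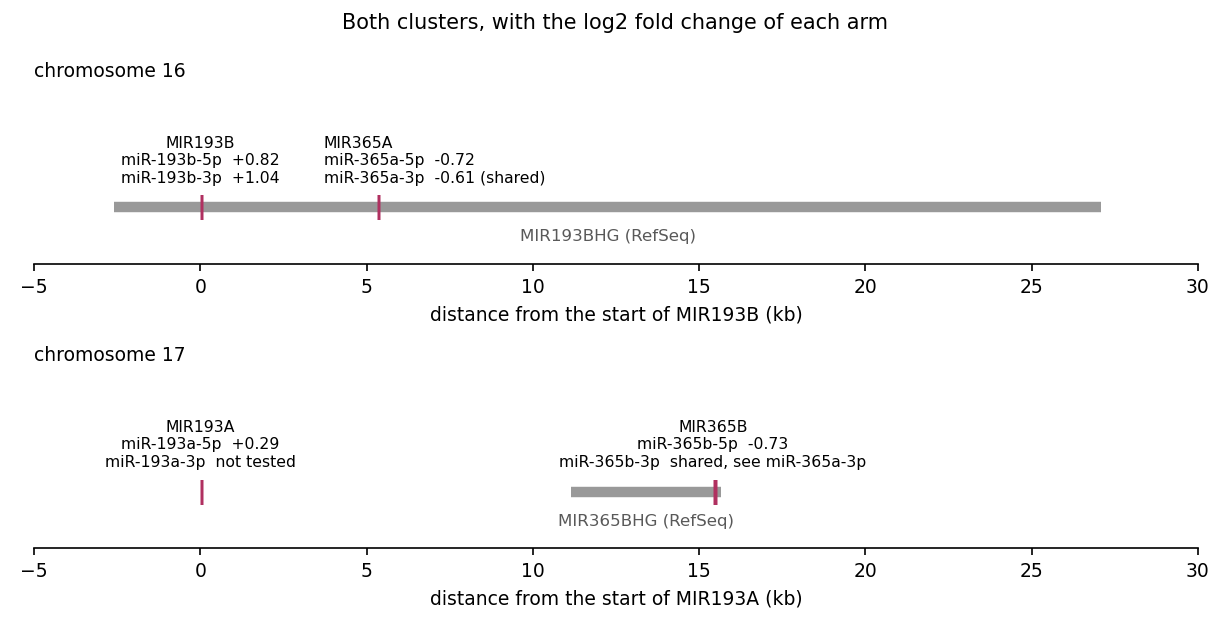
Map of both clusters by distance in kb from the start of the first precursor, with the host genes of RefSeq in grey, the precursors in red and the log2 fold change (RARαS77A against control, edgeR) of each arm printed above its precursor. Both arms of MIR193B are positive (0.82 and 1.04), and miR-365a-5p, 5235 bases away, is negative (-0.72), as is the row miR-365a-3p (-0.61), marked as shared because MIR365B gives the same 3p sequence.

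The libraries held between 9019266 and 11338580 counts. Levels are given as CPM, the count relative to the library total after scaling by TMM factors, which adjust for composition. No length term was used, as the mature sequences have 22 or 23 bases. Differences were tested with edgeR's quasi-likelihood test over 506 miRNAs, with Benjamini-Hochberg adjusted p-values and a limit of 0.05. Of the markers expected to be high in this mesenchymal-like line, miR-221-3p lay between 6747 and 10441 CPM and miR-222-3p between 7123 and 12476 CPM. Of those expected to be low, miR-141-3p lay between 0.365 and 0.763 CPM and miR-205-5p between 0.068 and 7.22 CPM. miR-200b-3p lay between 35.5 and 54.8 CPM and miR-200c-3p between 27.7 and 40.8 CPM. These 2 were thus not low beside miR-193b-3p in control libraries (26.6 to 32.8 CPM). Control replicate 3 stood apart from the other controls in its stem cell miRNAs. The 8 stem cell miRNAs of the list for other tissues summed to 3802 counts in it, to 2 and 1 counts in control replicates 1 and 2, and to between 2788 and 2861 counts in the RARαS77A libraries. The 5 muscle miRNAs of that list summed to 1025 counts in control replicate 1 and to between 62 and 81 counts in the other 5 libraries. The sum over the 23 miRNAs of that list matched by name was 195 to 534 CPM in control libraries. It was 666 to 764 CPM in RARαS77A libraries. Not among the 23 were miR-375-3p and miR-217-5p, because the list held them as miR-375 and miR-217, without the arm. Their log2 fold changes were -1.91 and 0.48 (adjusted p = 0.211 and 0.474, edgeR). Between 3 and 9 of the 23 were at 0 in a library. Of the 15 that were tested, 1 was called higher (miR-9-5p, 1.02 on the log2 scale) and 0 lower by edgeR, against 2 and 0 at an unadjusted p under 0.05, 1 and 0 by DESeq2 and 7 and 0 by limma-voom. The median log2 fold change of the 15 was 0.94 against 0.06 for all miRNAs tested, of which 44.5% were called. With the matched miRNAs of that list left out, the log2 fold change was 1.06 for miR-193b-3p and -0.59 for miR-365a-3p, and both calls remained. miR-375-3p and miR-217-5p stayed in that fit. Leaving out rows does not change the counts of the arms. The fit therefore cannot show whether the differences between libraries in these miRNAs bear on the arms. In control replicate 3, the levels of miR-193b-3p and miR-365a-3p lay between those of the other controls.

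The arm miR-193b-3p and the miR-365a arms went in opposite directions in RARαS77A cells. miR-193b-3p rose 2.06-fold, and miR-365a-3p, whose reads can come from either chromosome, fell 1.52-fold. miR-365a-5p, the arm specific to the miR-365 precursor on chromosome 16, fell 1.64-fold. The order of the 2 most abundant arms was thereby exchanged, since miR-365a-3p exceeded miR-193b-3p in each control library and miR-193b-3p exceeded miR-365a-3p in each RARαS77A library. Of the 4 arms that belonged to the original 6 and could be tested, 1 was called higher and 1 lower. Over all 506 miRNAs, 44.5% were called, 23.3% higher and 21.1% lower, so this share of calls is near the background.

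**Figure D2:**
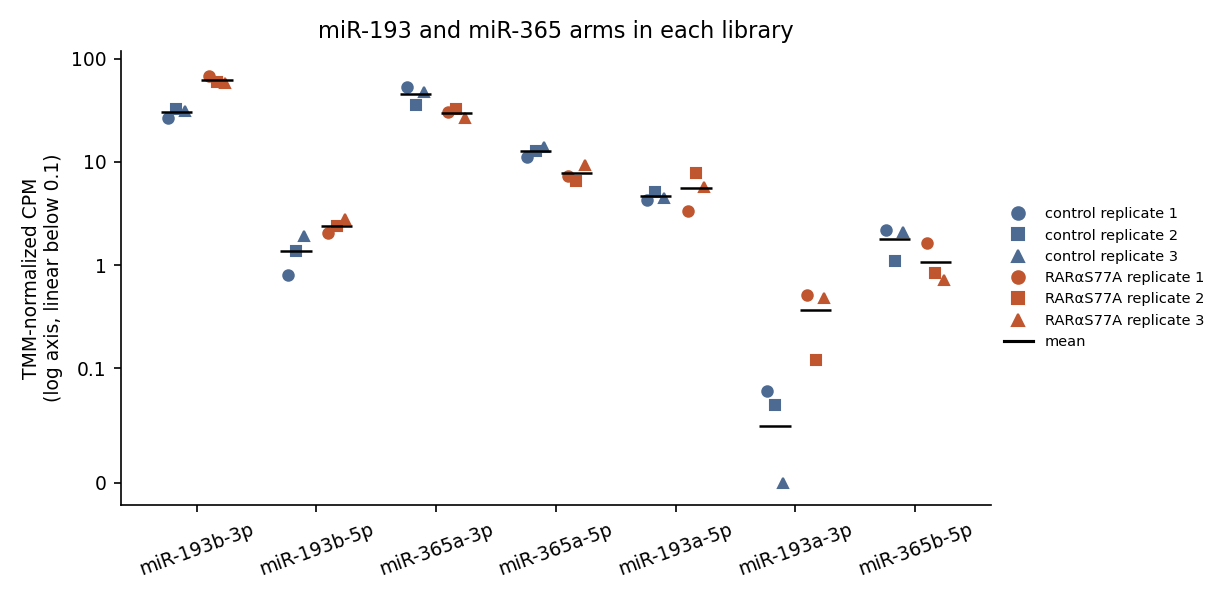
TMM-normalized CPM of each arm in each library on a log axis that is linear below 0.1, with control in blue, RARαS77A in orange, the replicate number by symbol and the group mean as a line. miR-193b-3p lies between 26.6 and 32.8 CPM in control and between 59.0 and 68.9 in RARαS77A libraries, and miR-365a-3p moves the other way.

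miR-193b-3p, the retained arm of MIR193B, was at 26.6, 32.8 and 31.5 CPM in the control libraries and at 68.9, 59.2 and 59.0 CPM in the RARαS77A libraries. All RARαS77A libraries lay above all controls. Groups that do not overlap were found for 58.1% of all miRNAs in the test. The mean was 30.3 ± 3.24 CPM in control and 62.4 ± 5.69 in RARαS77A cells (SD, n = 3), which is 1.04 ± 0.16 (SE) on the log2 scale (adjusted p = 0.00171, edgeR). The counts behind these values were 332, 482 and 345 in control and 542, 497 and 490 in RARαS77A libraries. The groups were also apart in the deposited TPM, as they were for 62.3% of all miRNAs in the test. In TPM the mean of miR-193b-3p was 37.2 ± 5.97 without and 51.1 ± 4.18 with RARαS77A (SD, n = 3). By count it ranked between 172 and 186 in control and between 148 and 155 in RARαS77A libraries. Each library could be left out without loss of the call, with log2 fold changes from 0.90 to 1.14. The labels name no batch, but a batch term that joins control replicate 3 with the RARαS77A libraries by their stem cell miRNAs, and so rests on 1 control, gave 0.98 (adjusted p = 0.0189, edgeR). Scaled to total counts alone, it was 0.46 (adjusted p = 0.0719, edgeR).

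miR-193b-5p, the other arm of the same precursor, was far rarer. It had 10, 20 and 21 counts in control and 16, 20 and 23 counts in RARαS77A libraries, which correspond to 0.802, 1.36 and 1.92 CPM and to 2.03, 2.38 and 2.77 CPM. In TMM-normalized CPM the RARαS77A libraries lay above the controls, but in the deposited TPM the groups overlapped. On the log2 scale the difference was 0.82 ± 0.36 (SE), which missed the limit (adjusted p = 0.0993, edgeR). Without control replicate 3 it was 1.07 (adjusted p = 0.0466, edgeR), and with the batch term 0.32. The arm had passed the filter on low counts through the RARαS77A group, where it is high. Control replicate 1 (10 counts, 0.926 TPM) fell short of the limit, so the call without control replicate 3 carries no support. The share of miR-193b-5p in the counts of MIR193B was 4.22% ± 1.42 in control and 3.74% ± 0.816 with RARαS77A (SD, n = 3). The single libraries ranged from 2.87% (95% Wilson interval 1.77 to 4.61) to 5.74% (3.78 to 8.61), and the intervals cover counting error only.

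miR-365a-3p, the retained arm of the miR-365 precursors, was at 53.7, 35.6 and 47.7 CPM in the control libraries and at 30.3, 33.0 and 26.6 CPM in the RARαS77A libraries. The groups did not overlap, as was so for 58.1% of all miRNAs in the test. Control replicate 2 still lay within 3 CPM of the highest RARαS77A library. The means were 45.7 ± 9.22 and 29.95 ± 3.20 CPM (SD, n = 3), or -0.61 ± 0.20 (SE) on the log2 scale (adjusted p = 0.0409, edgeR). The counts were 670, 524 and 522 in control and 238, 277 and 221 in RARαS77A libraries. This call was close to the limit and rested on single libraries. Without control replicate 1 the log2 fold change was -0.47 (adjusted p = 0.105, edgeR), and without RARαS77A replicate 1, 2 or 3 it was -0.68, -0.65 and -0.52 (adjusted p = 0.0686, 0.0912 and 0.117, edgeR). With the batch term it was -0.67 (adjusted p = 0.103, edgeR) and scaled by the upper quartile it was -0.38 (edgeR, adjusted p = 0.155).

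miR-365a-5p, which is specific to the chromosome 16 precursor, was at 11.1, 12.9 and 14.1 CPM in control and at 7.25, 6.55 and 9.39 CPM in RARαS77A libraries. It thus fell in the same direction as the shared 3p arm. The groups did not overlap, as was so for 58.1% of all miRNAs in the test. On the log2 scale the difference was -0.72 ± 0.20 (SE), with an adjusted p of 0.0235 (edgeR). Its call was lost without control replicate 2 (-0.67, adjusted p = 0.0515) or 3 (-0.69, adjusted p = 0.0552), without RARαS77A replicate 1 (-0.74, adjusted p = 0.0561) or 2 (-0.59, adjusted p = 0.0760), and with the batch term (-0.86, adjusted p = 0.0622), all by edgeR. Scaled by the upper quartile it was at -0.51, again without a call (edgeR, adjusted p = 0.110).

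miR-365b-5p, which marks the chromosome 17 precursor, had 27, 16 and 23 counts in control and 13, 7 and 6 counts in RARαS77A libraries. In TMM-normalized CPM this was 2.17, 1.09 and 2.10 in control and 1.65, 0.834 and 0.722 in RARαS77A libraries, so that the groups overlapped. The difference of -0.73 ± 0.45 (SE) on the log2 scale did not pass the test (adjusted p = 0.227, edgeR), and the arm had passed the filter on low counts through the control group. Of the reads of both miR-365 5p arms, those of miR-365a-5p were 87.7% ± 4.29 in control and 87.7% ± 5.79 with RARαS77A (SD, n = 3). The chromosome 16 precursor thus contributed most of the 5p reads in both groups, with single libraries between 81.4% (95% Wilson interval 70.8 to 88.8) and 92.9% (85.3 to 96.7). Whether the same holds for the reads of the shared 3p arm cannot be read from these counts.

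The arms of MIR193A, on chromosome 17, were rare. miR-193a-5p was at 4.25, 5.17 and 4.48 CPM in control and at 3.31, 7.86 and 5.78 CPM in RARαS77A libraries. The RARαS77A libraries spread on both sides of the controls, with replicate 1 below and replicates 2 and 3 above all of them. The difference of 0.29 ± 0.30 (SE) on the log2 scale did not pass the test (adjusted p = 0.473, edgeR), and it was -0.02 without RARαS77A replicate 2. miR-193a-3p, which has the seed of miR-193b-3p, had 1, 1 and 0 counts in control and 4, 1 and 4 counts in RARαS77A libraries and was not tested. Its 2 counts in control against 9 in RARαS77A libraries gave a ratio of 4.68 per total count, with a 95% exact interval from 0.968 to 44.5 that covers counting error only. A count of 0 in control replicate 3 allows up to 3 counts, or 0.333 TPM. Reads with this seed came almost wholly from miR-193b-3p, which had between 332 and 542 counts per library. The 5p share of MIR193A counts was 98.9% ± 0.951 in control and 92.5% ± 5.92 with RARαS77A (SD, n = 3), the reverse of MIR193B, where the 3p arm prevailed.

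In control cells the levels fell in the order miR-365a-3p, miR-193b-3p, miR-365a-5p, miR-193a-5p, miR-365b-5p, miR-193b-5p and miR-193a-3p. Of the neighbours in this order, miR-365b-5p and miR-193b-5p overlapped between libraries and the others did not. In RARαS77A cells the order was miR-193b-3p, miR-365a-3p, miR-365a-5p, miR-193a-5p, miR-193b-5p, miR-365b-5p and miR-193a-3p, where miR-365a-5p and miR-193a-5p overlapped. The only neighbours that stood in one order in every control library and in the other in every RARαS77A library were miR-365a-3p and miR-193b-3p. Control replicate 2 already had fewer counts of miR-365b-5p (16) than of miR-193b-5p (20).

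**Figure D3:**
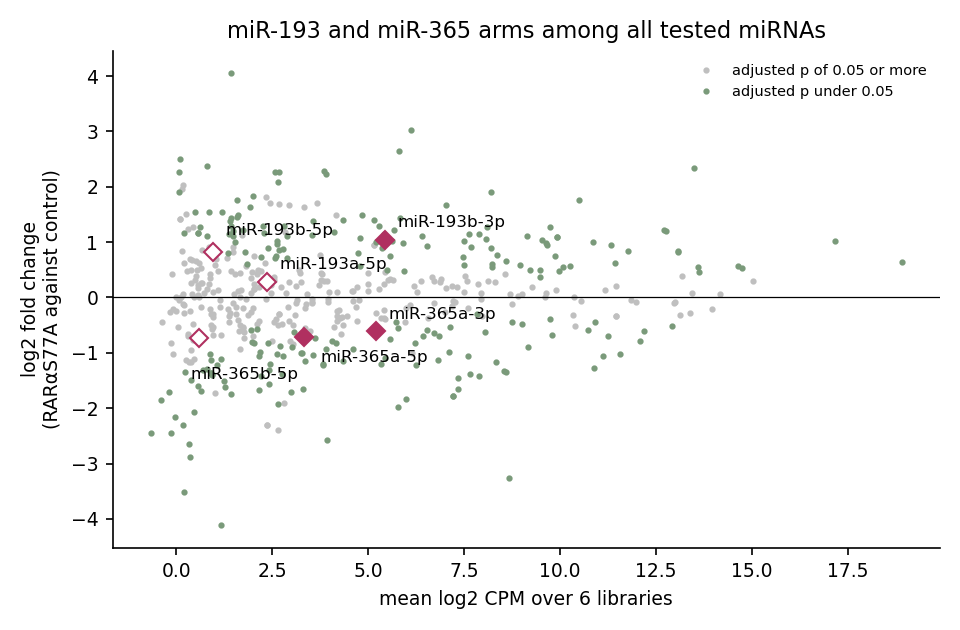
Log2 fold change (RARαS77A against control) over mean log2 CPM for the 506 miRNAs tested, in green where the adjusted p was under 0.05 and in grey otherwise, with the miR-193 and miR-365 arms as diamonds that are filled where called. miR-193b-3p (1.04) lies above 84.4% of all fold changes, whereas miR-365a-3p (-0.61) and miR-365a-5p (-0.72) lie above 23.9% and 20.8%.

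Ratios between 2 arms of the same library do not depend on the scaling. The ratio of miR-365a-3p to miR-193b-3p, counted with 0.5 added, was 2.02, 1.09 and 1.51 in control and 0.440, 0.558 and 0.452 in RARαS77A libraries. It was above 1 in each control and below 1 in each RARαS77A library. On the log2 scale the mean was 0.58 ± 0.45 in control and -1.06 ± 0.19 with RARαS77A (SD, n = 3), so that the difference was -1.63 ± 0.28 (SE), or 3.11-fold. For the 5p arms of the chromosome 16 precursors, miR-365a-5p to miR-193b-5p, the ratio was 13.3, 9.29 and 7.19 in control and 3.48, 2.71 and 3.34 in RARαS77A libraries. Here too the groups were apart, with a log2 difference of -1.61 ± 0.28 (SE). Its denominator, miR-193b-5p, had passed the filter on low counts through the RARαS77A group, where it is high. The 5p ratio is therefore no second support for that of the 3p arms. Each of these ratios reached the smallest p that 3 against 3 libraries allow (two-sided exact permutation test, p = 0.1, and 0.4 after Benjamini-Hochberg adjustment over 8 ratios), so this test cannot pass a limit of 0.05 at this number of libraries.

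The ratio of the arms of MIR193B overlapped between the groups. miR-193b-3p to miR-193b-5p was 31.7, 23.5 and 16.1 in control and 32.9, 24.3 and 20.9 in RARαS77A libraries, a log2 difference of 0.16 ± 0.34 (SE, exact permutation p = 0.7). The ratio of miR-365a-3p to miR-365a-5p, in which the 3p row can also hold reads of MIR365B, overlapped too. It was 4.81, 2.75 and 3.38 in control and 4.15, 5.0 and 2.82 in RARαS77A libraries, with a log2 difference of 0.13 ± 0.34 (SE, exact permutation p = 0.7). Both differences were smaller than their standard errors. Of the other 4 ratios, miR-193a-5p to miR-193a-3p (-2.0), miR-193b-3p to miR-193a-3p (-1.17), miR-193b-5p to miR-193a-5p (0.68) and miR-365b-5p to miR-193a-5p (-0.92), each had overlapping groups (exact permutation p = 0.2, 0.3, 0.2 and 0.3, adjusted p = 0.4 each). Those over miR-193a-3p rest on 1, 1 and 0 control counts, and with 5 added to the counts they were -0.85 and -0.06. Single libraries moved all 4. Without control replicate 3, miR-193b-3p to miR-193a-3p was at -0.71, and without control replicate 1, miR-193b-5p to miR-193a-5p was at 0.41. Without RARαS77A replicate 1 or 2, miR-193a-5p to miR-193a-3p was at -1.37 or -2.83 and miR-365b-5p to miR-193a-5p at -1.61 or -0.52.

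**Figure D4:**
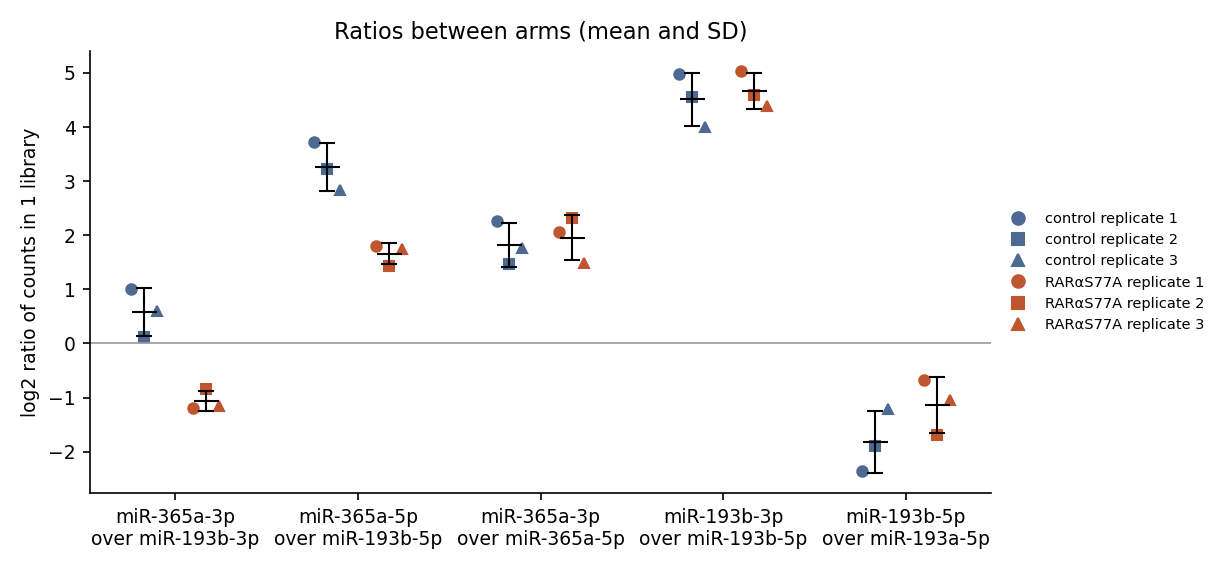
Log2 ratio of the counts of 2 arms in each library (0.5 added to each), with control in blue, RARαS77A in orange, the replicate number by symbol and black bars for the mean and SD. The ratios of miR-365a to miR-193b arms are apart between groups for both the 3p (0.58 against -1.06) and the 5p arm (3.26 against 1.66), whereas the 3p to 5p ratios of miR-193b and of miR-365a overlap.

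A scaling shifts the log2 fold changes of all miRNAs by about the same amount, so the difference between an arm and the median is nearly fixed by construction. The median log2 fold change of the miRNAs tested was 0.06 with TMM, -0.51 with total counts and 0.27 with upper quartile scaling. Relative to that median, miR-193b-3p lay between 0.97 and 0.99 and miR-365a-3p between -0.68 and -0.65 under the 5 scalings tried. miR-193b-5p lay between 0.74 and 0.77, miR-365a-5p between -0.79 and -0.77 and miR-193a-5p between 0.20 and 0.22.

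**Figure D5:**
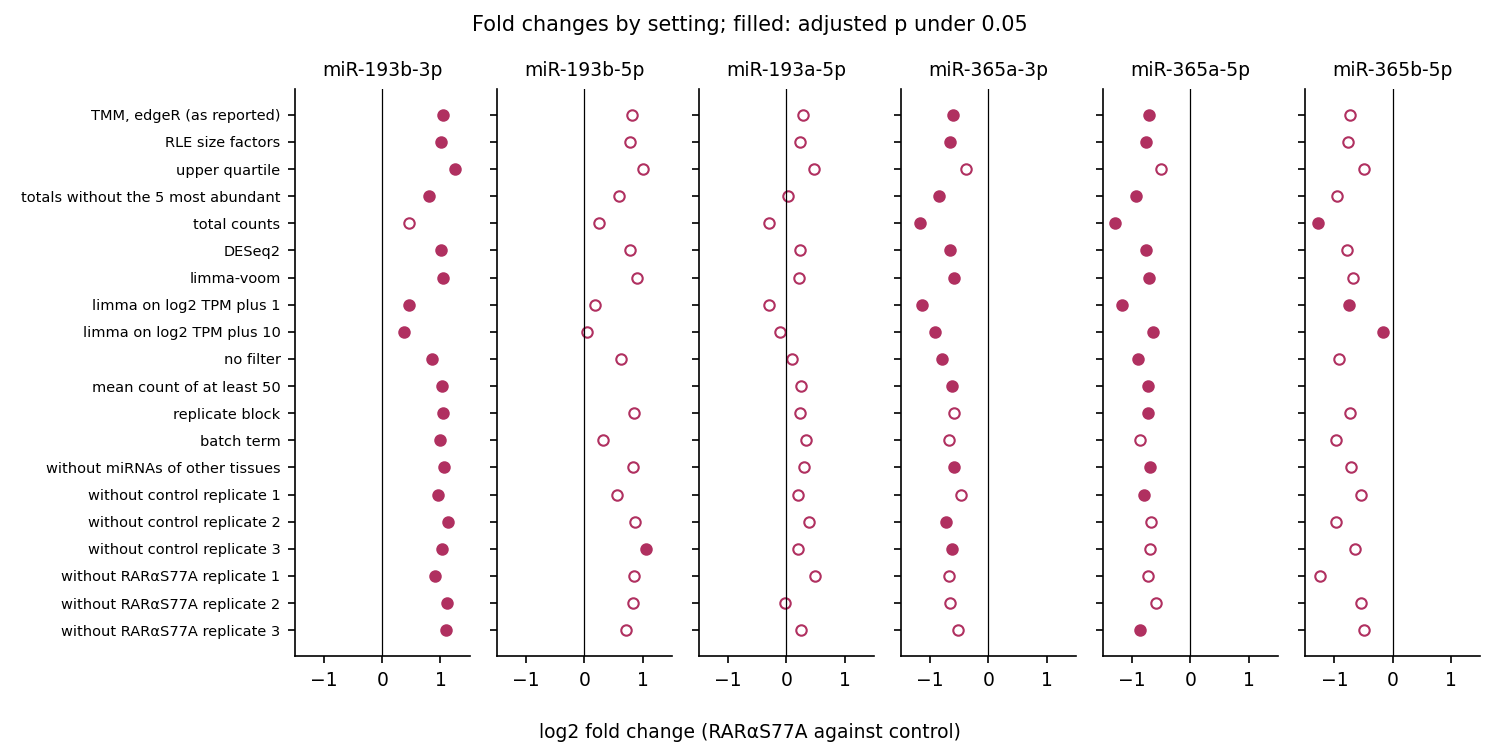
Log2 fold change (RARαS77A against control) of 6 arms under each setting tried, with filled points where the adjusted p was under 0.05. miR-193b-3p is positive and the miR-365 arms are negative under every setting shown, and miR-193a-5p changes sign between settings.

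Other miRNAs reported in breast cancer as suppressors of growth or spread did not move in a single direction. Of 20 such miRNAs listed, 18 were tested, 6 were called higher, 4 lower and 8 were not called, with a median log2 fold change of -0.24 against 0.06 for all tested. Among all miRNAs, 23.3% were called higher and 21.1% lower, and 44.5% in either direction, so the 10 calls of 18 are close to the background. miR-148a-3p, which targets DNA methyltransferases, rose from a mean of 785 ± 195 CPM to 2651 ± 178 CPM (SD, n = 3), or by 1.76 on the log2 scale (adjusted p = 0.000269, edgeR). The endothelial miR-126-3p followed with 1.26. The largest decreases were those of miR-195-5p (-1.21) and miR-497-5p (-1.05), which come from one cluster on chromosome 17 and belong to the miR-15/16 seed family. With total counts as the scaling, 2 were called higher and 8 lower, and with the batch term 2 and 3.

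Of 13 other miRNAs often reported to repress cyclin D1, as miR-193b-3p and miR-365 are, 10 were called lower and 0 higher by edgeR, and 3 were not called. At an unadjusted p under 0.05, 12 were lower and 0 higher. DESeq2 called 11 lower and 0 higher, limma-voom 10 and 0, and edgeR with the batch term 7 and 0. Among all 506 miRNAs, 21.1% were called lower and 23.3% higher, and with the batch term 55 were lower and 76 higher. The median log2 fold change of the list was -1.03, against 0.06 for all tested. The largest decreases were in miR-106b-5p, from 387 ± 40.0 to 144 ± 14.1 CPM, and in miR-17-5p, from 2984 ± 389 to 1230 ± 225 CPM (SD, n = 3), with log2 fold changes of -1.43 and -1.28 (adjusted p = 0.000237 and 0.000560, edgeR). miR-365a-3p moved in the same direction as this list and miR-193b-3p in the opposite one. miR-16-5p, miR-34a-5p, miR-195-5p and miR-497-5p stand on both lists. Several of the listed miRNAs come from shared precursors or families, so they are not independent of each other. The list was also chosen with earlier results of these data known. Its calls therefore describe these miRNAs and are not a test of the list.

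The miRNA whose levels over the 6 libraries were most like those of miR-193b-3p was miR-29c-5p, with a root mean square difference of 0.07 in centred log2 CPM among 309 candidates. It was at 32.6, 37.5 and 33.6 CPM in control and at 78.7, 63.5 and 67.3 CPM in RARαS77A libraries. For miR-365a-3p the nearest were miR-548k and miR-186-5p (0.12 and 0.13), and for miR-193a-5p they were miR-2277-5p and miR-424-3p (0.15 and 0.17). A predicted miRNA without a database name was the second nearest to miR-193b-3p (0.10).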

How the data were processed

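Libraries of small RNA from MDA-MB-231 (3 control, 3 RARαS77A) were made by the authors with the NEBNext small RNA kit and sequenced on an Illumina HiSeq instrument. The authors deposited whole-number read counts per miRNA, not normalized, and TPM values, which equal the count scaled to the library total, with no length term and a largest difference of 4.74e-05. Bowtie is named in the submitters' processing notes. Its version, the reference build and the read filters are not given in the sources used. Whether replicates were separate cultures is not stated, so p-values measure the spread between these libraries. Libraries of a group differed beyond counting noise (chi-square per degree of freedom of at least 67.5). In bulk RNA, fewer cells with a miRNA and less of it per cell cannot be told apart.

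Counts were scaled by TMM, filtered with filterByExpr (minimum count of 10) and tested with edgeR 4.0.16 (estimateDisp, glmQLFit, glmQLFTest) in R 4.3.3. Standard errors of log2 fold changes were derived from their size and the F statistic (size over root F). DESeq2 1.42.0, limma 3.58.1, other scalings and filters, a replicate block, a batch term and single libraries left out were alternatives. Ratios, intervals and exact permutation tests used scipy 1.17.1. The scripts were tested on simulated data. The members and lists were chosen with earlier results of these data known. Named miRNAs were the arms of the 4 precursors, the 2 largest called changes in each direction per list, and the 2 nearest in centred log2 CPM (prior count of 2, mean count of at least 50) for miR-193b-3p, miR-193a-5p and miR-365a-3p.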

Additional observations from a re-analysis of the deposited data

How the results depend on the processing

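miR-193b-3p kept its direction under 19 alternatives (0.38 to 1.25) and its call under all but total counts (0.46). With single libraries left out, log2 fold changes lay between 0.90 and 1.14 for miR-193b-3p, 0.56 and 1.07 for miR-193b-5p, -0.017 and 0.49 for miR-193a-5p, -0.74 and -0.47 for miR-365a-3p, -0.87 and -0.59 for miR-365a-5p, and -1.24 and -0.49 for miR-365b-5p. Calls were lost by miR-365a-3p under the batch term (-0.67), the replicate block (-0.59) and upper quartile scaling (-0.38), and by miR-365a-5p under the batch term (-0.86) and upper quartile scaling (-0.51). miR-365b-5p gained a call under total counts (-1.29) and with limma on log2 TPM plus 1 (-0.75) or 10 (-0.16), but it had passed the filter through the control group, where it is high, so these calls carry no support. miR-193a-5p turned negative under total counts and limma on TPM plus 1 (-0.29 each), limma on TPM plus 10 (-0.11) and without RARαS77A replicate 2 (-0.017), without a call. These total-count settings have no composition factor, and the other causes were not tested.

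The 118 higher and 107 lower miRNAs became 51 and 213 under total counts, 55 and 221 with limma on TPM plus 1, 59 and 218 with limma on TPM plus 10, and 76 and 55 with the batch term, and 162 were lower without a filter. With single libraries left out, 101 to 125 were higher and 92 to 116 lower. The 6 higher and 4 lower of the growth list became 2 and 8 under total counts and both limma settings on TPM, 3 and 8 without a filter and 3 and 7 with totals that leave out the 5 most abundant miRNAs, with 2 higher under the batch term. Without single libraries, 5 to 6 were higher and 4 to 5 lower. On the cyclin D1 list 7 to 12 were lower and 0 higher in every setting.

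Against control replicate 3 as the only control, the log2 difference was -2.08 for miR-193b-3p to miR-193a-3p, 0.67 for miR-193b-3p to miR-193b-5p, 0.061 for miR-193b-5p to miR-193a-5p and -1.19 for miR-365a-5p to miR-193b-5p. With 5 added to the counts, miR-193b-3p to miR-193a-3p was at -0.063 and miR-193a-5p to miR-193a-3p at -0.85. The ratio of miR-365a-3p to miR-193b-3p stayed between -1.86 and -1.42 in all 8 alternatives.

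The replicate numbers are shared by both groups. Deviations of same-numbered libraries correlated at 0.0353, 0.103 and 0.0165, so no shared effect was visible. Whether same-numbered libraries were prepared together is not stated, and these correlations cannot decide it. The block changed no other call among the arms. Since miR-365b-3p had no row here, leaving it out was not run, and 2 of the 10 planned ratios have no value. At 10 to 27 counts per control library, the standard errors of miR-193b-5p and miR-365b-5p were 0.36 and 0.45 on the log2 scale, against 0.16 for miR-193b-3p.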
